A study of Mus musculus with 12 samples.

Results

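Expression of the insulin-like growth factor (IGF) system was measured in 2 clonal mouse digit fibroblast lines, P3D8 and P3E3, before and after differentiation into cartilage. The system was represented by 10 genes of 35976 gene symbols in the table of normalized counts: the ligands Igf1 and Igf2, the receptors Igf1r and Igf2r, and the binding proteins Igfbp2, Igfbp3, Igfbp4, Igfbp5, Igfbp6 and Igfbp7. The genes were taken by symbol, and the counts of all transcript entries with the same symbol were added. Of the 10 genes, 4 reached a mean of 10 normalized counts over the 12 libraries and were tested: Igfbp4, Igfbp5, Igfbp6 and Igf2r.

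Each line is 1 clone, grown from a lone lacZ+ cell of the digit tip (P3), so clone and line cannot be told apart. The 4 groups had 3 libraries each from separate cultures at passage 6. P3D8/BMP9 and P3E3/BMP9 were cartilage aggregates, formed in suspension on uncoated dishes in 2% serum with BMP2 (50 ng/ml) over 4 days, followed by BMP9 (50 ng/ml) over 14 days. P3D8 monolayer and P3E3 monolayer were grown on fibronectin with EGF (10 ng/ml), PDGF (10 ng/ml), LIF (0.5 ng/ml) and 2% serum to 80% confluency, with neither BMP. The BMPs, suspension culture, culture time and the growth factors of the monolayer medium changed together and cannot be told apart. BMP2 and BMP9 are bone morphogenetic proteins, which induce cartilage.

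IGF1 and IGF2 are secreted growth factors that signal through the tyrosine kinase receptor IGF1R and, in growing cartilage, promote chondrocyte proliferation, matrix synthesis and enlargement. IGF2R is the cation-independent mannose 6-phosphate receptor. It has no kinase, carries lysosomal enzymes to lysosomes and removes IGF2 from the cell surface. The IGF binding proteins hold the ligands outside cells and control how much reaches the receptor, until proteases such as pappalysin-1 (Pappa) cut them and release the ligand.

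Libraries held 7269748 to 8662298 counted reads. Of the sample records, 4, 1 in each group, carry a cell line entry that names the other clone than the title does. Grouping was by title. On the second principal component of all tested genes, which held 8.72% of the variance, libraries titled P3D8 lay at -30.76 to -21.62 and those titled P3E3 at 23.12 to 29.61. The 4 libraries in question were each on the side of the clone in the title. Summed normalized counts of 21 chondrocyte markers were 10766 to 16745 in P3D8/BMP9 and 27938 to 60232 in P3E3/BMP9, against 724 to 887 in P3D8 monolayer and 843 to 921 in P3E3 monolayer. Of the 21, the largest means over the 12 libraries were those of Col10a1 (5317), Epyc (3323), Sox9 (2623) and Clec3a (2261). In each cartilage group 5 were at 0: Sox5, Col11a2, Lect1 and Ucma in both, with Col9a3 in P3D8/BMP9 and Hapln1 in P3E3/BMP9. The cartilage collagen Col2a1 and the proteoglycan Acan were counted in all 6 cartilage libraries (55.9 to 104 and 14.9 to 53.2 normalized counts) and were at 0 to 1.24 normalized counts in all 6 monolayers. Neither was called between the 2 cartilage groups (limma adjusted p = 0.92 and 0.86), and they have 3 and 2 transcript entries. Summed markers of some other cell types were also higher in cartilage. The 6 osteoblast markers summed to 2652 to 3628 in P3D8/BMP9 and 1662 to 2628 in P3E3/BMP9, against 27.0 to 34.8 in P3D8 monolayer and 3.05 to 7.85 in P3E3 monolayer. Bglap, Bglap2 and Ibsp made up most of these sums, Phex fell in P3D8 (log2 change -1.55, limma adjusted p = 0.0017) and rose in P3E3 (1.73, limma adjusted p = 0.00064), and Dmp1 was at 0 throughout. The 16 fibroblast markers summed to at least 599585 in all 6 cartilage libraries and at most 160196 in all 6 monolayers, mostly from collagens such as Col1a1 and Col1a2. Within that list Pdgfra fell in both clones (-1.10 in P3D8, limma adjusted p = 0.0031, and -1.87 in P3E3, limma adjusted p = 3.3e-05), Prrx1 fell in P3E3 (-2.10, limma adjusted p = 8.5e-10) and Postn was at 0. The 7 adipocyte markers summed to 393 to 424 in P3D8/BMP9 and 208 to 264 in P3E3/BMP9, against at most 6.83 in any monolayer, through Fabp4 and Lpl, with Plin1, Cfd, Pparg and Cidec at 0. The 6 muscle markers summed to 784 to 894 in P3D8/BMP9, against 165 to 239 in P3D8 monolayer. They summed to 517 to 630 in P3E3/BMP9, against 295 to 486 in P3E3 monolayer. Acta2 had a mean of 468 normalized counts over the 12 libraries, against 38.2 for Des. Acta2 rose in P3D8 (1.86, limma adjusted p = 2.7e-07) and was not called in P3E3 (0.29, limma adjusted p = 0.15). Des rose in both clones, and Myh11, Myod1, Myog and Actc1 were at 0. The 6 macrophage and blood markers summed to 24.6 to 36.3 in P3D8/BMP9, below the 40.45 to 65.6 of P3D8 monolayer. In P3E3/BMP9 they summed to 68.9 to 106, above the 3.05 to 4.83 of P3E3 monolayer. Lyz2 rose in both clones (4.67 in P3D8 and 6.34 in P3E3), and Ptprc, Csf1r and Adgre1 were at 0. Hba-a1 fell in both clones (-4.30 in P3D8, limma adjusted p = 2.1e-08, and -1.10 in P3E3, limma adjusted p = 0.0067). The fall in P3E3 is close to the limit of detection, with Hba-a1 at 0 in P3E3/BMP9 and all 6 markers summing to at most 4.83 in P3E3 monolayer. These are bulk RNA samples, in which a change in the share of a cell type and a change in RNA per cell cannot be told apart, and the part of these other markers in the results below was not tested.

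The promoters of the 4 tested genes are shown because the binding proteins and the receptor moved in opposite directions in cartilage, and because their sequences near the start differ. The RefSeq windows (GRCm38.p6) run from 250 bases before to 50 after the annotated start, 5' to 3' on the strand of the gene. They are chr11:99040994-99041293 on the plus strand for Igfbp4, whose start in the table lies inside the annotated span of the gene, chr1:72874816-72875115 on the minus strand for Igfbp5, chr15:102143936-102144235 on the plus strand for Igfbp6 and chr17:12769657-12769956 on the minus strand for Igf2r. Capitals mark matches, on either strand, to the TATA box letters TATAAA and TATTTAA, to the E-box CACGTG and to the CLEAR motif of lysosomal genes, which is CACGTG with GT before it and AC after it and so overlaps the E-box.
Igfbp4: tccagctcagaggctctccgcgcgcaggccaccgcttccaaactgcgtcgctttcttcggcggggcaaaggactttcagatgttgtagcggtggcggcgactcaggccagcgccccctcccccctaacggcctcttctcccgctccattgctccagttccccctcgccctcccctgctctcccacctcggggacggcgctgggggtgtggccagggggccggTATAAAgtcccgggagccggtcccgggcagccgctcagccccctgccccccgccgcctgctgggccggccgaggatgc
Igfbp5: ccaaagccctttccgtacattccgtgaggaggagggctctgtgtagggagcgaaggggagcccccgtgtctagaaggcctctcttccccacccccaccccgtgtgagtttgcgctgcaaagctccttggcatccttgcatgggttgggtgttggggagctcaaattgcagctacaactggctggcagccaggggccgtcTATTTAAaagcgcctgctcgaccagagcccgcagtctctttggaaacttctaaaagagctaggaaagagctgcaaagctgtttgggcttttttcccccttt
Igfbp6: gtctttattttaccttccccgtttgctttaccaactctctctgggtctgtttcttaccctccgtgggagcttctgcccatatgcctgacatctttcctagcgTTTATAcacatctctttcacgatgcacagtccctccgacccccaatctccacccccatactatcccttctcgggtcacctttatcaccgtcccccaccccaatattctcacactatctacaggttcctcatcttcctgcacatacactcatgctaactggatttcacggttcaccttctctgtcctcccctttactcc
Igf2r: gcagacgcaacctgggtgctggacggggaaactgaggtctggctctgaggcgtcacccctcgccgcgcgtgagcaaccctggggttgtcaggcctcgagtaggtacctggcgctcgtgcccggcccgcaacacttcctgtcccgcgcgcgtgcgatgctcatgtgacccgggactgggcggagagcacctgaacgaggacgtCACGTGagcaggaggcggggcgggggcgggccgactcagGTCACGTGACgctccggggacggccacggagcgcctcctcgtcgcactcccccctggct
TATAAA began 28 bases before the start of Igfbp4, and TATTTAA began 51 bases before the start of Igfbp5. Over 32851 promoter windows of this length, 13.6% held TATAAA and 4.51% held TATTTAA. In Igfbp6, TATAAA was read on the opposite strand, 148 bases before the start. The Igf2r window held CACGTG 48 and 7 bases before the start, and the match closer to the start was part of the CLEAR motif. CACGTG was in 7.15% and the CLEAR motif in 0.326% of all windows. GGCGCC, found in 11.9% of all windows, was in none of these 4. The windows also differed in base composition, with GC contents of 71.3% (Igfbp4), 56.3% (Igfbp5), 49.7% (Igfbp6) and 70.7% (Igf2r) beside a median of 52.7% over all windows, and with 27, 10, 8 and 34 CpG sites in that order of genes beside a median of 7. These letters are descriptions of the windows and were not tied to the expression values.

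Igfbp4 (chr11:99040005-99052655) was the most abundant member in cartilage. IGFBP4 is a binding protein that inhibits IGF action in bone and cartilage cells and is the classical substrate of pappalysin-1. Its values were 141979, 141412 and 167874 normalized counts in P3D8/BMP9, and 6580, 6738 and 8088 in P3D8 monolayer. They were 112672, 135308 and 151888 normalized counts in P3E3/BMP9, and 5349, 5202 and 4663 in P3E3 monolayer. Every cartilage library lay far above every monolayer library, and the 2 cartilage groups overlapped each other. Of all reads, 2.23% to 2.59% in P3D8/BMP9 and 1.70% to 2.16% in P3E3/BMP9 were Igfbp4 reads, against 0.135% to 0.166% in P3D8 monolayer and 0.105% to 0.117% in P3E3 monolayer. By count, Igfbp4 ranked 3 to 5 among all gene symbols in P3D8/BMP9 and 4 to 7 in P3E3/BMP9, against 102 to 128 in P3D8 monolayer and 156 to 178 in P3E3 monolayer. The mean was 21.1 times that of monolayer in P3D8 and 26.3 times in P3E3. On the log2(normalized count + 1) scale, on which all fold changes below are given, the changes were 4.40 ± 0.12 (SE) in P3D8 (limma adjusted p = 3.7e-13) and 4.71 ± 0.12 in P3E3 (limma adjusted p = 1.0e-13).

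Igfbp5 (chr1:72858065-72874865) was close to the limit of detection in monolayer and well counted in cartilage. IGFBP5 binds to extracellular matrix and is the binding protein that bone matrix stores in quantity. Cartilage libraries had 5624, 5835 and 7149 normalized counts in P3D8/BMP9, against 0.652, 0 and 1.24 in P3D8 monolayer. The P3E3/BMP9 libraries had 3455, 3569 and 6435 normalized counts, against 2.41, 0.593 and 0 in P3E3 monolayer. In reads, this was 23657 in P3D8/BMP9 against 3 over all P3D8 monolayer libraries, and 16326 in P3E3/BMP9 against 5 over all P3E3 monolayer libraries. The ratios of the means were 9823 in P3D8 (95% counting interval 3361 to 47632) and 4476 in P3E3 (1918 to 13786), with exact Poisson intervals of the monolayer reads that cover counting error only. The fitted log2 changes of 11.96 ± 0.39 (SE) in P3D8 (limma adjusted p = 2.2e-12) and 11.26 ± 0.39 in P3E3 (limma adjusted p = 2.6e-12) depend on the 1 count added before the log. Igfbp5 passed the minimum mean through its cartilage values alone.

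Igfbp6 (chr15:102144186-102149512) was the member whose cartilage change differed between the clones. IGFBP6 prefers IGF2 to IGF1 as a ligand. It had 12108, 12365 and 11792 normalized counts in P3D8/BMP9, against 2437, 2848 and 2322 in P3D8 monolayer. In P3E3/BMP9 it had 20422, 22467 and 17721 normalized counts, against 763, 564 and 707 in P3E3 monolayer. None of the 4 groups overlapped another, and the order was P3E3/BMP9, P3D8/BMP9, P3D8 monolayer and P3E3 monolayer, so the clone with the higher level in cartilage had the lower level in monolayer. The mean in cartilage was 4.77 times that of monolayer in P3D8 and 29.8 times in P3E3. The log2 changes were 2.26 ± 0.11 (SE) in P3D8 (limma adjusted p = 2.4e-10) and 4.90 ± 0.11 in P3E3 (limma adjusted p = 4.3e-14).

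Igf2r was the member that fell in cartilage. It had 3194, 3429 and 2870 normalized counts in P3D8/BMP9, against 7526, 6525 and 8113 in P3D8 monolayer. In P3E3/BMP9 it had 2620, 2522 and 3533 normalized counts, against 4882, 5769 and 7366 in P3E3 monolayer. The highest cartilage library lay below the lowest monolayer library, and the clones overlapped within each culture type. Monolayer means were 2.33 times those of cartilage in P3D8 and 2.08 times in P3E3. The log2 changes were -1.22 ± 0.15 (SE) in P3D8 (limma adjusted p = 3.5e-06) and -1.05 ± 0.15 in P3E3 (limma adjusted p = 1.5e-05). Igf2r (chr17:12682406-12769706) overlaps the noncoding RNA gene Airn (chr17:12741311-12859884), known in mouse as the antisense transcript that silences the paternal Igf2r allele. Airn had 34.3 to 44.3 normalized counts in P3D8/BMP9 and 27.5 to 41.3 in P3E3/BMP9, against 10.3 to 11.8 in P3D8 monolayer and 9.75 to 18.97 in P3E3 monolayer. The strand setting of the counting is not given in the sources used here, so reads of the overlapping parts may not have been told apart. The 401 reads counted for Airn over the 12 libraries stood beside 87324 for Igf2r, and both counts depend on that setting. A link between the levels of Airn and Igf2r was not tested.

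**Figure D1:**
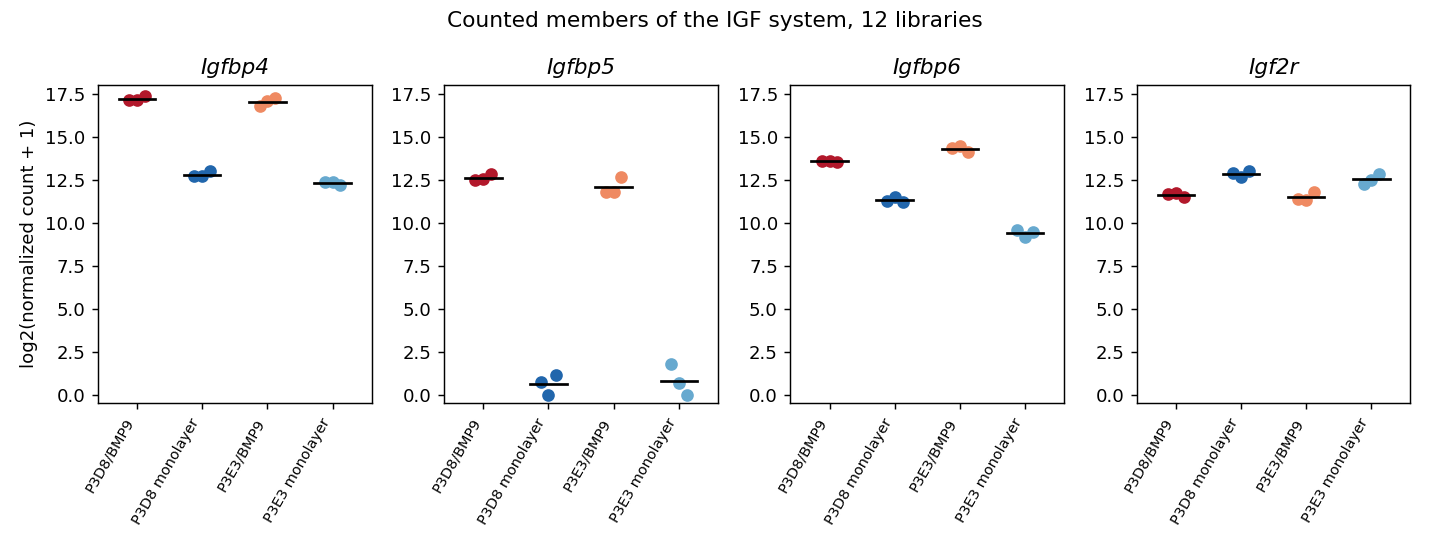
Normalized counts of Igfbp4, Igfbp5, Igfbp6 and Igf2r on the log2(normalized count + 1) scale. Each point is a library, each line the mean of the 3 libraries of a group, with BMP9 cartilage left of monolayer for each clone. The binding proteins are higher in cartilage and Igf2r is lower, and for Igfbp6 the clone with the higher level changes between culture types.

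Counted over the tested members, 3 rose and 1 fell in P3D8/BMP9 against P3D8 monolayer, and the same 3 rose and the same 1 fell in P3E3/BMP9 against P3E3 monolayer. These calls are frequent in this comparison: of 5294 genes tested, 37.6% were called higher and 38.7% lower in P3D8, and 41.6% higher and 38.1% lower in P3E3. With the fold threshold of the study added (log2 change of at least 1.5), all 3 binding proteins and 18.9% of all genes passed as higher in P3D8, and all 3 and 21.4% of all genes in P3E3, and Igf2r did not pass as lower in either clone, where 10.2% of all genes in P3D8 and 12.3% in P3E3 did. With values rescaled to library totals Igf2r was past that threshold in both clones, at -1.60 in P3D8 and -1.66 in P3E3. Groups without overlap were as frequent, at 39.5% of all genes higher and 39.9% lower in P3D8/BMP9 and 42.2% higher and 38.6% lower in P3E3/BMP9. The number of members called is therefore not read as particular to the IGF system, and the sizes of the changes are the description given here. Igfbp5 passed the minimum mean through its cartilage values alone, so its call as higher adds little to these counts.

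Between the clones in cartilage, P3D8/BMP9 against P3E3/BMP9, 1 of the 4 tested members was called, in a comparison where 22.1% of all genes were called higher and 28.3% lower. Igfbp6 was lower in P3D8/BMP9, at 12088 ± 287 against 20203 ± 2381 normalized counts (SD, n = 3 each), with a log2 difference of -0.73 ± 0.11 (SE; limma adjusted p = 0.00012). It did not reach the fold threshold of the study, which 4.89% of all genes passed as higher and 3.51% as lower. The groups did not overlap, as for 24.7% of all genes as higher and 33% as lower. The other 3 were not called, and their 95% limits leave room for moderate differences in log2 terms: -0.08 to 0.44 for Igfbp4 (difference 0.18, limma adjusted p = 0.23), -0.32 to 1.36 for Igfbp5 (0.52, limma adjusted p = 0.29) and -0.18 to 0.46 for Igf2r (0.14, limma adjusted p = 0.46). Igfbp4 would be called with values rescaled to library totals (0.28, limma adjusted p = 0.039), and Igfbp5 by edgeR on the recovered reads (0.55, adjusted p = 0.027).

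In monolayer, P3D8 against P3E3, 2 of the 4 tested members were called, both higher in P3D8, beside 26.6% of all genes called higher and 23.2% lower. Igfbp6 was at 2536 ± 276 normalized counts in P3D8 monolayer and 678 ± 103 in P3E3 monolayer (SD, n = 3 each), 3.74 times as high, with a log2 difference of 1.91 ± 0.11 (SE; limma adjusted p = 1.3e-08). It passed the fold threshold, as 6.65% of all genes did as higher and 1.76% as lower, and the groups did not overlap, as for 30% of all genes as higher and 27.3% as lower. Igfbp4 was at 7135 ± 829 in P3D8 monolayer and 5071 ± 361 in P3E3 monolayer, 1.41 times as high, with a log2 difference of 0.49 ± 0.12 (SE; limma adjusted p = 0.0035). Igf2r had a log2 difference of 0.31 (95% limits -0.01 to 0.64, limma adjusted p = 0.098) and was not called, but it was called when P3E3 monolayer replicate 3 was left out (0.47, limma adjusted p = 0.015). Igfbp5, at 3 reads in P3D8 monolayer and 5 in P3E3 monolayer, gave no detectable difference at this depth (log2 difference -0.18, limma adjusted p = 0.73).

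The difference between the clones in the cartilage change was tested in the same fit, as the P3D8 change minus the P3E3 change. Only Igfbp6 was called among the 4 tested members, where 18.6% of all genes were called higher and 27.6% lower. Its difference was -2.64 on the log2 scale (95% limits -2.99 to -2.29, limma adjusted p = 3.8e-08), and it lay between -2.73 and -2.52 when each library was left out in turn. It passed the fold threshold, as 5.06% of all genes did as higher and 8.01% as lower. For Igfbp4 the difference was -0.31 (95% limits -0.67 to 0.05, limma adjusted p = 0.15), and it was called without P3E3/BMP9 replicate 1 (-0.42, limma adjusted p = 0.046). Igfbp5 (0.71, limits -0.48 to 1.89, limma adjusted p = 0.31) and Igf2r (-0.17, limits -0.63 to 0.28, limma adjusted p = 0.53) were not called. All differences between the clones rest on the titles. With groups set by the cell line entry instead, none of the 4 members was called between the clones, nor was any of the 5294 genes by limma in the 3 comparisons of clones, where 31, 89 and 49 genes had an unadjusted p under 0.05 (cartilage, monolayer and the difference of the changes). Without the 4 conflicting libraries, the Igfbp4 difference in monolayer was 0.34 (limma adjusted p = 0.044), and the calls of Igfbp6 were retained.

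**Figure D2:**
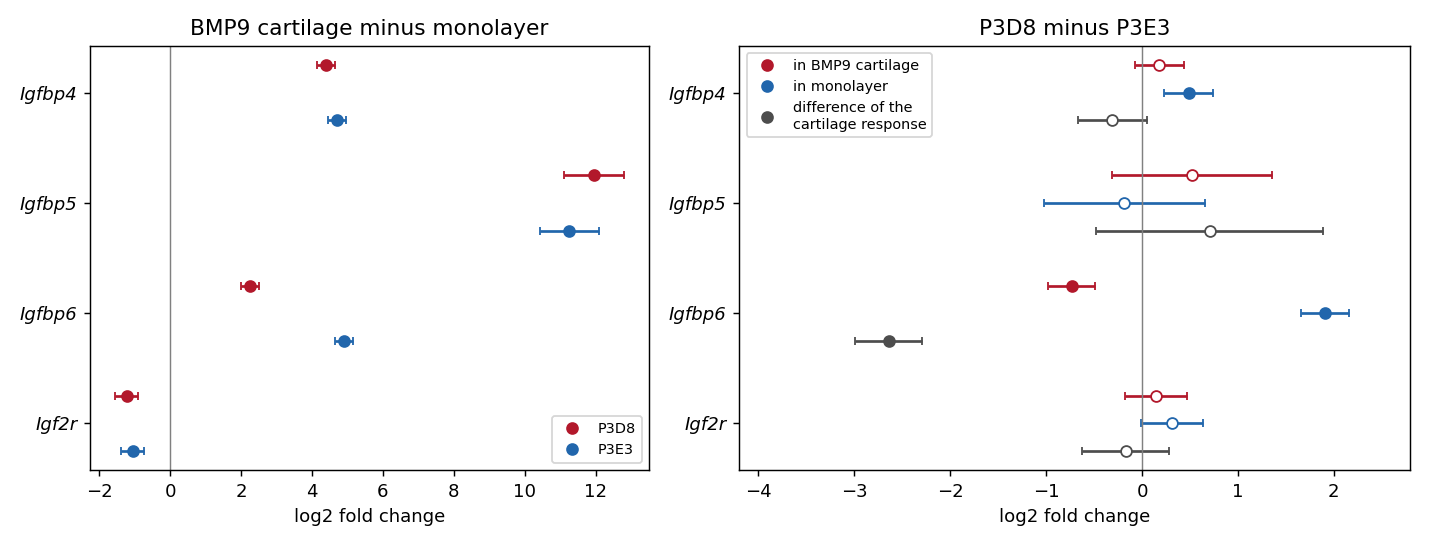
Log2 fold changes with 95% limits from limma. The left panel gives BMP9 cartilage minus monolayer for P3D8 and P3E3, and the right panel P3D8 minus P3E3 in cartilage, in monolayer and for the difference of the cartilage changes. Filled points have an adjusted p under 0.05. Igfbp6 is the member with called values on opposite sides of 0 in cartilage (-0.73) and monolayer (1.91).

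Levels of different genes were compared per kb of transcript. In P3D8/BMP9, Igfbp4 stood at 39264 ± 3946 normalized counts per kb (SD, n = 3), above Igfbp6 (10871 ± 258), Igfbp5 (1033 ± 138) and Igf2r (356 ± 31.6). In P3E3/BMP9 the order was the same, with 34792 ± 5139 for Igfbp4, 18168 ± 2141 for Igfbp6, 747 ± 281 for Igfbp5 and 325 ± 62.7 for Igf2r. In P3D8 monolayer Igfbp6 (mean 2280, range 2088 to 2561) and Igfbp4 (1863 ± 216, up to 2111) overlapped per kb, and Igf2r was at 831 ± 90.4. In P3E3 monolayer Igf2r (676 ± 142) and Igfbp6 (609 ± 92.2) overlapped, under Igfbp4 at 1324 ± 94.3. The ratio of Igfbp4 to Igfbp6 per kb was 3.32 to 4.13 in P3D8/BMP9 against 0.687 to 1.01 in P3D8 monolayer, without overlap. It was 1.60 to 2.49 in P3E3/BMP9 against 1.92 to 2.68 in P3E3 monolayer, with overlap. As a share of the reads of all 3 binding proteins, Igfbp6 made up 6.31% to 7.75% in P3D8/BMP9 and 10.1% to 14.96% in P3E3/BMP9, against 22.3% to 29.7% in P3D8 monolayer and 9.78% to 13.2% in P3E3 monolayer.

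**Figure D3:**
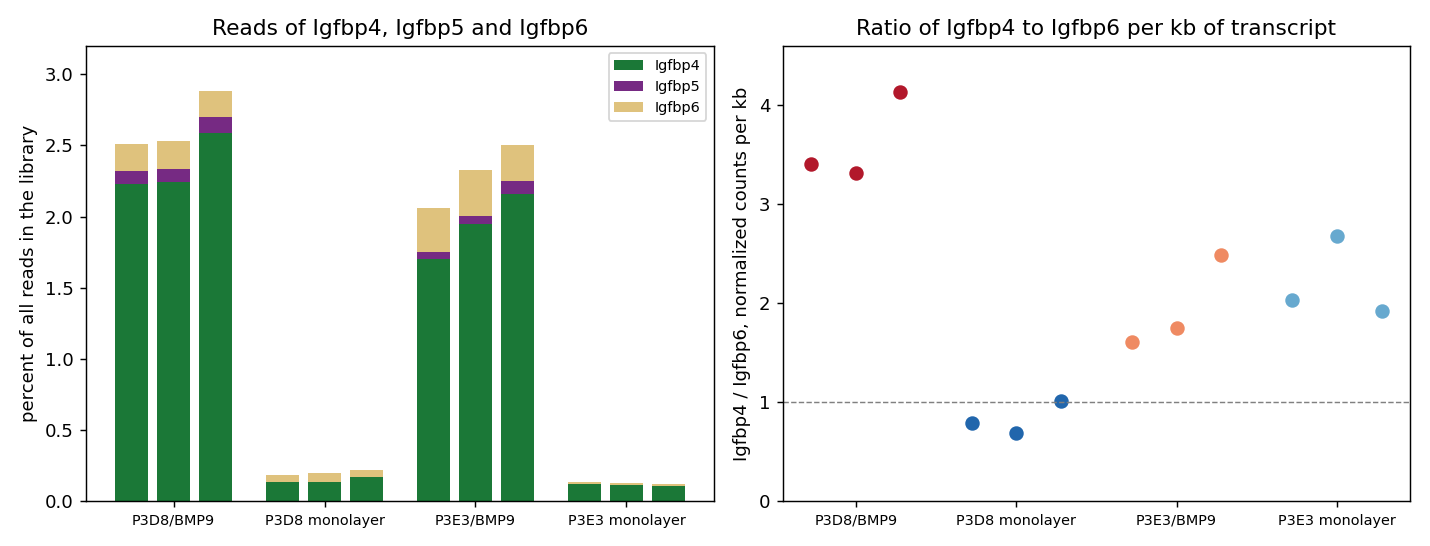
Left, reads of Igfbp4, Igfbp5 and Igfbp6 as a percent of all reads of each library, stacked. Right, the ratio of Igfbp4 to Igfbp6 in normalized counts per kb, with the dashed line at equal levels. The cartilage libraries give 2.06% to 2.88% of their reads to the 3 genes and the monolayers 0.121% to 0.214%, and the ratio separates culture types in P3D8 (3.32 to 4.13 in P3D8/BMP9, 0.687 to 1.01 in P3D8 monolayer) but not in P3E3.

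Within P3E3/BMP9, replicate 3 stood apart. It had 6435 normalized counts of Igfbp5, above 3455 and 3569 in replicates 1 and 2, and had the lowest Igfbp6 count of the group, 17721. Col10a1, a marker of hypertrophic chondrocytes, was at 2233 in replicate 3, against 28246 and 12873 in replicates 1 and 2, and Col9a2 was at 1747 against 4693 and 2910. In P3D8/BMP9, Igfbp5 was also highest in replicate 3 (7149), where Col10a1 was at 9738 against 7033 and 3682. With 3 libraries a group, no relation between these genes was tested.

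The other 6 members were at or near 0 in every library. Igf2, Igfbp2, Igfbp3 and Igfbp7 had no read in any of the 12 libraries. A count of 0 allows up to 3 reads in a library, which is 0.346 to 0.413 CPM (counts scaled to library depth), counting error only. Igf1 had 13 reads in all: 3, 3 and 5 in P3D8/BMP9, 2 in a replicate of P3E3/BMP9 and none in the monolayers, for means of 2.89 normalized counts in P3D8/BMP9 and 0.572 in P3E3/BMP9. In P3D8/BMP9 the Igf1 mean was 4.52 times a monolayer floor set at 3 reads over the group. That ratio leaves out the counting error of the 11 cartilage reads. Igf1r had 7 reads in all, 3 in P3D8/BMP9, 1 in P3E3/BMP9, 3 in P3D8 monolayer and 0 in P3E3 monolayer.

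These 6 genes were also the 6 members with more than 1 transcript entry in the table, with 14 entries for Igf1, 6 for Igf2, 7 for Igf1r and 2 each for Igfbp2, Igfbp3 and Igfbp7. Each of the 4 well-counted members had 1. The same split ran through the table. A mean of 10 or more normalized counts was reached by 40.9% of the 7242 symbols with 1 entry and by 12.7% of the 13378 symbols with more. The share was 21.7% with 2 entries, 10.7% with 3 to 5 and 7.12% with 6 or more. Genes that nearly all cells use are listed at 0 as well, among them the mTORC1 regulators Tsc1 and Tsc2. The share of symbols with no read at all differed less, at 38.3% with 1 entry and 43.2% with more, and Igfbp1, with 1 entry, was at 0 too. Why these genes had few or no reads was not tested, so a level of 0 is not read as absence of the transcript.

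**Figure D4:**
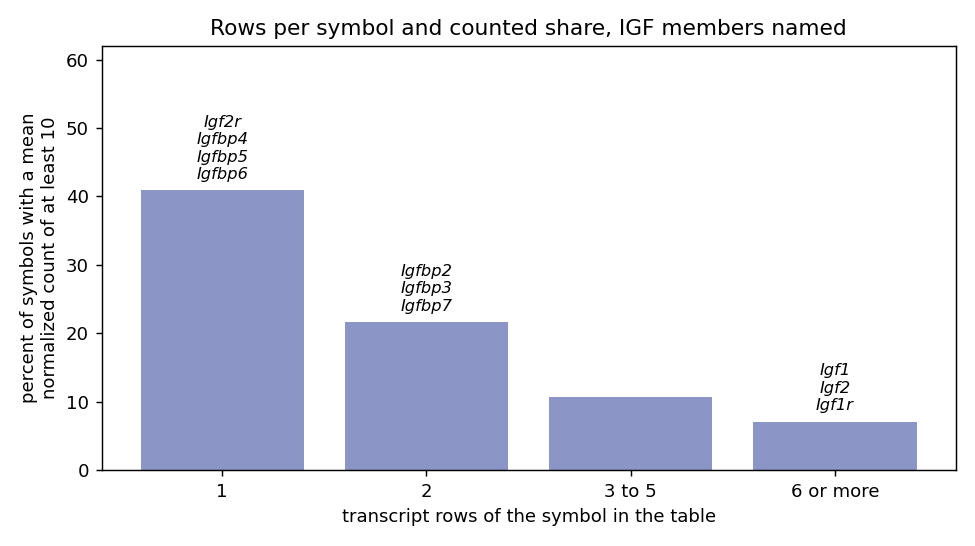
Percent of gene symbols that reached a mean of 10 normalized counts, by the number of transcript entries of the symbol in the table, with the IGF members of each class named above its bar. The share is 40.9% with 1 entry and 7.12% with 6 or more, and all 4 counted members are in the class with 1.

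Among 12 other genes of IGF availability (binding proteins, their proteases and inhibitors of these), 4 were tested. Median log2 change over the 4 was -0.04 in P3D8/BMP9 against P3D8 monolayer (2 higher, 1 lower) and 0.50 in P3E3/BMP9 against P3E3 monolayer (2 higher, 2 lower), beside medians over all genes of -0.03 and 0.07. Over all genes 37.6% were higher and 38.7% lower in P3D8, and 41.6% higher and 38.1% lower in P3E3, so neither these counts nor those of the lists below are read as particular to a list. With library totals the P3D8 count was 1 higher and 2 lower. Pappa, the protease that cuts IGFBP4, had 53.7, 56.9 and 17.4 normalized counts in P3D8/BMP9, against 0, 0 and 1.24 in P3D8 monolayer. It had 13.0, 8.27 and 20.6 in P3E3/BMP9, against 0 in all P3E3 monolayer libraries. Pappa rose in both clones (limma adjusted p = 2.5e-07 in P3D8 and 3.2e-06 in P3E3). The ratio was 103 in P3D8 (counting interval 28.5 to 851, from 2 monolayer reads). In P3E3/BMP9 the mean was 23.2 times a monolayer floor of 3 reads, leaving out the counting error of the cartilage reads. Pappa was counted through cartilage alone and has 2 entries.

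Stc2, stanniocalcin-2, an inhibitor of pappalysin-1, went the other way. It had 154, 170 and 216 normalized counts in P3D8/BMP9, against 1264, 1171 and 1108 in P3D8 monolayer. P3E3/BMP9 had 385, 362 and 312 normalized counts, against 852, 901 and 786 in P3E3 monolayer. No cartilage library overlapped a monolayer library, and Stc2 fell by 2.72 on the log2 scale in P3D8 (limma adjusted p = 5.4e-11) and fell by 1.26 in P3E3 (limma adjusted p = 2.0e-07). Htra1, a secreted serine protease that can cut IGFBP5, was among the well-counted genes, at 10766 ± 1106 normalized counts in P3D8/BMP9 and 9023 ± 1284 in P3D8 monolayer, and at 6783 ± 174 in P3E3/BMP9 and 11916 ± 937 in P3E3 monolayer (SD, n = 3 each). It fell in P3E3 (log2 change -0.81, limma adjusted p = 4.2e-06). In P3D8 the groups overlapped and the call (0.26, limma adjusted p = 0.032) was lost without P3D8/BMP9 replicate 3 (0.18, limma adjusted p = 0.14), P3D8 monolayer replicate 1 (0.23, limma adjusted p = 0.099) or P3D8 monolayer replicate 2 (0.18, limma adjusted p = 0.15), and the sign turned with values rescaled to library totals (-0.12). Adam12, a metalloprotease able to cut IGFBP3 and IGFBP5, was at 87.3 ± 13.1 normalized counts in P3D8/BMP9 and 111 ± 17.4 in P3D8 monolayer (log2 change -0.33, limma adjusted p = 0.21), and was called lower there with values rescaled to library totals (-0.71, limma adjusted p = 0.013). It rose in P3E3, to 233 ± 80.9 in P3E3/BMP9, against 64.7 ± 16.0 in P3E3 monolayer (log2 change 1.81, limma adjusted p = 6.1e-06).

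Of 7 genes that act on Igf2 RNA or are imprinted, 3 were tested, with median log2 changes of -0.69 in P3D8 and -2.18 in P3E3. In each clone 2 fell and 1 rose, in comparisons where 38.7% (P3D8) and 38.1% (P3E3) of all genes fell. Igf2bp2, which binds Igf2 mRNA, had 363, 351 and 399 normalized counts in P3D8/BMP9, against 1491, 1468 and 1724 in P3D8 monolayer. It had 262, 269 and 270 in P3E3/BMP9, against 2282, 2461 and 2743 in P3E3 monolayer, and fell without overlap in both clones (by 2.07 on the log2 scale in P3D8, limma adjusted p = 3.9e-11, and by 3.22 in P3E3, limma adjusted p = 2.2e-13). Igf2bp1, of the same family, fell by 0.69 in P3D8 (limma adjusted p = 7.3e-05) and fell by 2.18 in P3E3 (limma adjusted p = 2.9e-10). Plagl1, an imprinted zinc finger gene, passed the minimum mean through P3E3/BMP9 alone. It had 12 reads in P3D8/BMP9 against 2 in P3D8 monolayer (ratio 7.13, counting interval 1.97 to 58.8 from the monolayer reads alone). That call (limma adjusted p = 0.026) was lost without P3D8/BMP9 replicate 1 (limma adjusted p = 0.14), P3D8/BMP9 replicate 2 (0.052), P3D8 monolayer replicate 3 (0.096) or the 4 libraries with conflicting labels (0.23), by edgeR (0.094) and with 5 counts added before the log (log2 change 0.52, limma adjusted p = 0.17). In P3E3 it had 340, 142 and 106 normalized counts in P3E3/BMP9, against 1.81, 1.19 and 0.609 in P3E3 monolayer (ratio 163, counting interval 75.02 to 445; limma adjusted p = 2.5e-08).

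Of 44 genes of insulin and IGF receptor signalling, 16 were tested. In P3D8/BMP9 against P3D8 monolayer 5 rose, 6 fell and 5 were not called, with a median log2 change of 0.39. In P3E3/BMP9 against P3E3 monolayer 5 rose, 8 fell and 3 were not called, with a median of -0.30. The medians over all genes were -0.03 and 0.07, and the shares of all genes called were 37.6% higher and 38.7% lower in P3D8, and 41.6% higher and 38.1% lower in P3E3. The receptor substrates went in opposite directions. Irs1, the docking protein of the IGF1 and insulin receptors, had 810, 836 and 697 normalized counts in P3D8/BMP9, against 168, 168 and 196 in P3D8 monolayer. In P3E3/BMP9 it had 2528, 2541 and 2876, against 315, 305 and 553 in P3E3 monolayer. It rose without overlap in both clones, by a log2 change of 2.13 in P3D8 (limma adjusted p = 5.1e-08) and 2.81 in P3E3 (limma adjusted p = 1.9e-09).

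Irs2, the related docking protein, had 110, 103 and 92.6 normalized counts in P3D8/BMP9, against 540, 436 and 583 in P3D8 monolayer. It had 59.0, 38.9 and 56.6 in P3E3/BMP9, against 795, 1014 and 967 in P3E3 monolayer. Irs2 fell by 2.33 on the log2 scale in P3D8 (limma adjusted p = 8.0e-09) and fell by 4.16 in P3E3 (limma adjusted p = 1.0e-11). Grb14, an adaptor that inhibits these receptors, with 2 entries in the table, rose to 123 ± 8.53 normalized counts in P3D8/BMP9, against 30.1 ± 4.29 in P3D8 monolayer, and to 203 ± 15.3 in P3E3/BMP9, against 12.05 ± 2.87 in P3E3 monolayer (limma adjusted p = 1.5e-07 and 5.8e-11). Pik3r1, a regulatory subunit of PI3 kinase with 4 entries in the table, fell in P3E3 (51.2 ± 37.7 in P3E3/BMP9, 154 ± 39.6 in P3E3 monolayer; limma adjusted p = 0.0016) and was not called in P3D8 (log2 change 0.43, limma adjusted p = 0.37).

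Further down the pathway, Foxo1, a transcription factor that AKT holds out of the nucleus, rose to 1656 ± 31.4 normalized counts in P3D8/BMP9, against 404 ± 41.0 in P3D8 monolayer, and to 1176 ± 136 in P3E3/BMP9, against 409 ± 54.3 in P3E3 monolayer (limma adjusted p = 4.5e-10 and 8.8e-09). Foxo3, of the same family and with 2 entries, fell by 1.44 on the log2 scale in P3D8 (limma adjusted p = 4.6e-10) and by 1.72 in P3E3 (limma adjusted p = 5.0e-11). Eif4ebp1, the translation repressor that mTORC1 inactivates, had 691, 677 and 1533 normalized counts in P3D8/BMP9, against 7914, 8538 and 8231 in P3D8 monolayer. It had 2887, 2737 and 2219 in P3E3/BMP9, against 5789, 5548 and 4374 in P3E3 monolayer. Eif4ebp1 fell in both clones, without overlap (log2 change -3.20 in P3D8, limma adjusted p = 1.4e-08, and limma adjusted p = 0.0013 in P3E3). Mapk3, encoding the kinase ERK1, rose by a log2 change of 0.94 in P3D8 (limma adjusted p = 5.8e-07) and 1.39 in P3E3 (limma adjusted p = 6.3e-09).

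**Figure D5:**
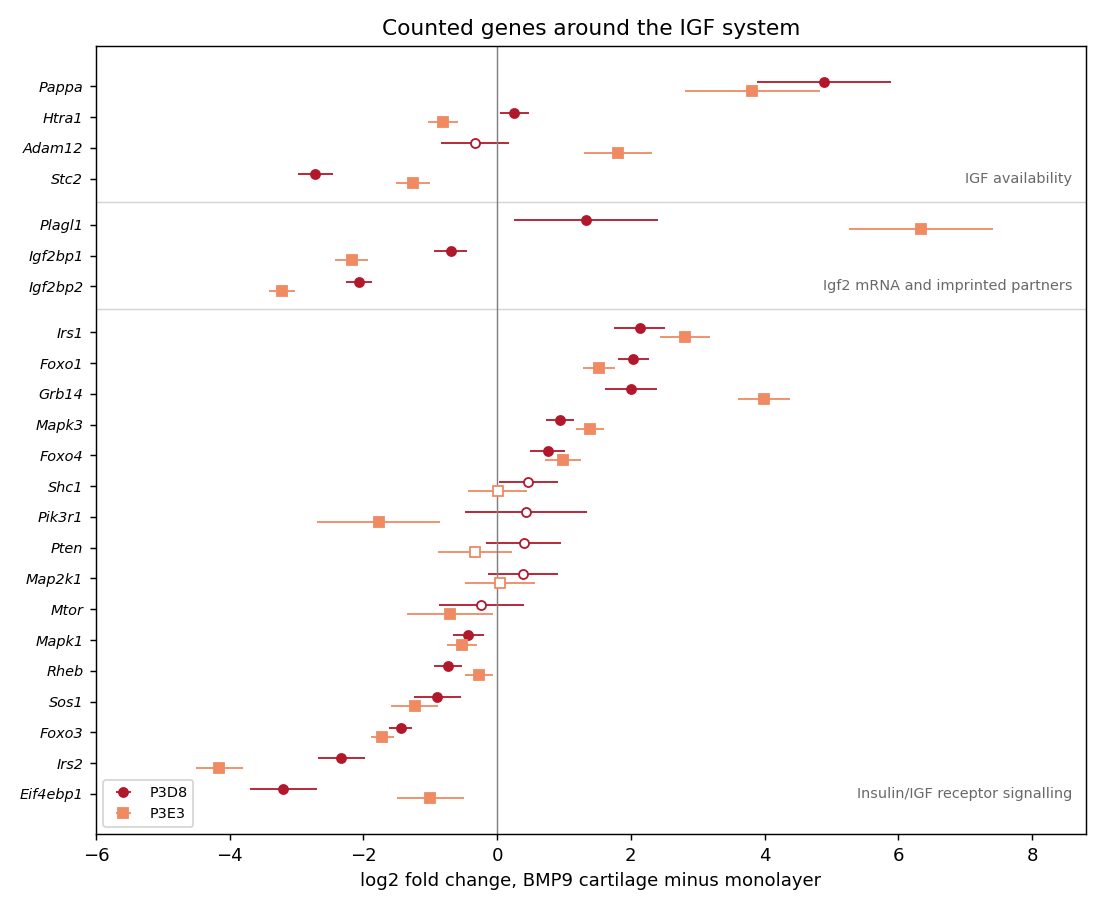
Log2 fold changes of BMP9 cartilage minus monolayer, with 95% limits, for all 23 tested genes of the 3 lists around the IGF system (horizontal lines part the lists). Circles are P3D8 and squares P3E3, and filled points have an adjusted p under 0.05. Irs1 (2.13 in P3D8, 2.81 in P3E3) and Irs2 (-2.33 in P3D8, -4.16 in P3E3) lie on opposite sides of 0.

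The genes most like each tested member were sought among 3428 other well-counted genes, by Pearson's r of log2 values over the 12 libraries, as a description. The 12 libraries fall into 4 groups that share culture type or clone, so high values of r are common. Igfbp4 was most like Enpp3 (r = 0.998), Rspo3 (0.998) and Hoxa13 (0.997). Igfbp5 was most like Lbp (0.997), Rspo3 (0.997) and Fmod (0.996). Igfbp6 was most like Sept5 (0.996), Tubb2a (0.995) and Tgfb1 (0.994). Each of these had the same order of groups as Igfbp6, which largely follows from their choice by r. For Tgfb1 the means were 2612 normalized counts in P3E3/BMP9, 2121 in P3D8/BMP9, 742 in P3D8 monolayer and 346 in P3E3 monolayer. Igf2r was most like Myo1e (0.990), Tox4 (0.985) and Pfas (0.982). Among the members themselves, r was 0.994 between Igfbp4 and Igfbp5, 0.942 between Igfbp4 and Igfbp6 and 0.912 between Igfbp5 and Igfbp6, and -0.93 to -0.82 between Igf2r and the binding proteins.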

How the data were processed

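RNA of 12 libraries was sequenced as 100-bp paired reads. The authors aligned reads to mm10 with HISAT2, counted them per RefSeq transcript with htseq-count and divided them by 1 DESeq2 size factor per library, estimated together with other cartilage datasets not used here. The deposited values are these normalized counts, a signal per transcript. Versions, annotation file, strand setting and overlap rule are not given in the sources used here. All values (100%) were whole multiples of 1 step per library within 0.01 reads, so whole reads were recovered. A second deposited table, with log2 fold changes, FDR p-values and group means of the authors' comparison, was not used. No column of per-sample values was left unmapped.

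Entries of a symbol were added, and 5294 genes with a mean of at least 10 were fitted with limma 3.58.1 (R 4.3.3; trend) on log2(normalized count + 1), with 4 groups by title. Adjusted p-values are Benjamini-Hochberg over all genes tested, two-sided, called under 0.05. The fit was tested on simulated data. Count tests on recovered reads, by edgeR 4.0.16 and DESeq2 1.42.0, called 4022 and 3945 genes in P3D8/BMP9 against P3D8 monolayer (limma 4041), 4214 and 4165 in the P3E3 comparison (4219), 2669 and 2614 between the cartilages (2666), 2658 and 2618 between the monolayers (2638), and 2307 and 2278 for the difference of changes (2445). Other alternatives were the pseudocount, the filter, the most counted entry, library totals, the replicate block, the cell line entry, 2 groups alone and each library left out.

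The members and lists were chosen with earlier results of these data known. Named genes are all members, the 3 most correlated genes of each tested member with a mean of at least 50 (predicted genes left out), and called list genes, with at least the 4 largest changes of each list in each cartilage comparison. Gene positions, promoters and older symbols are from RefSeq (GRCm38.p6), in which all 10 members matched, and transcript lengths from GENCODE vM21. Replicates of a group correlated at r = 0.985 or more and differed by more than sampling noise, so none were merged. Same-numbered libraries of different groups correlated at -0.299 to 0.245 after group means were removed, so numbers were not used as pairs.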

Additional observations from a re-analysis of the deposited data

Results flagged for a closer look

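The cartilage change differed between the clones for Igfbp6 and for 13 of the named genes around the system. Each was called by an interaction term in limma (P3D8 change minus P3E3 change, log2 scale). Of all genes tested, 18.6% were called higher and 27.6% lower by this term. Most genes were named for large called changes in either clone, so their number is not read as an excess over that share. Pappa (1.07, limma adjusted p = 0.20) and Foxo3 (0.27, limma adjusted p = 0.056) were named but not called. Foxo3 was called by edgeR (0.345, adjusted p = 0.020) and DESeq2 (0.32, adjusted p = 0.027). For Igfbp6 the difference was -2.64, with an increase in both clones that was larger in P3E3. Grb14 (-1.99), Irs1 (-0.68) and Mapk3 (-0.46) also rose in both clones and more in P3E3. The Irs1 difference had a limma adjusted p of 0.038, and its call was lost in 8 of the 12 fits that left out 1 library. It was also lost by edgeR (-0.55, adjusted p = 0.085) and DESeq2 (-0.58, adjusted p = 0.060). The same held with library totals (-0.45, limma adjusted p = 0.16) and with no filter (-0.68, limma adjusted p = 0.074). The Mapk3 difference was not called with values rescaled to library totals (-0.23, limma adjusted p = 0.14). Plagl1 differed by -5.01 and Adam12 by -2.14, each called as higher in P3E3/BMP9. Plagl1 passed the minimum mean through P3E3/BMP9 alone, its value rests on 12 and 2 reads in P3D8/BMP9 and P3D8 monolayer, and edgeR did not call it (-4.54, adjusted p = 0.20). Stc2 (-1.46) and Eif4ebp1 (-2.20) fell in both clones and more in P3D8. Igf2bp1 (1.48), Igf2bp2 (1.15) and Irs2 (1.83) fell in both clones and more in P3E3. Foxo1 (0.51) rose in both clones and more in P3D8. Htra1 (1.07) and Pik3r1 (2.20) fell in P3E3. In P3D8, Htra1 was called higher (0.26, limma adjusted p = 0.032), a call lost in 3 of the 12 fits that left out 1 library. Pik3r1 was not called there (0.43, limma adjusted p = 0.37). Without the 4 libraries with a conflicting cell line entry, the differences of Foxo1 (0.46, limma adjusted p = 0.083) and Pik3r1 (1.99, limma adjusted p = 0.11) were not called.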

How the results depend on the processing

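Igfbp4, Igfbp5, Igfbp6 and Igf2r kept their direction and their call in both cartilage against monolayer comparisons under all 24 alternatives, with 4 members called each time 1 library was left out. Leaving out a library of the other clone cannot move a log2 change, only the shared estimate of the spread. Igfbp5, near 0 in monolayer, could hardly lose its call. With no filter, Igf1 was also called higher in P3D8/BMP9 against P3D8 monolayer (log2 1.93, limma adjusted p = 0.00062), on 11 reads against 0. It was not called in P3E3 (0.48, limma adjusted p = 0.41). Igfbp5 changes ranged from 10.1 to 13.3 in P3D8 and 9.51 to 12.1 in P3E3 with the pseudocount and the count tests. Between the clones in cartilage, 1 member was called in the main analysis, 2 with no filter (Igf1 added, log2 1.45, adjusted p = 0.013), 2 with library totals and 2 with edgeR on recovered reads, and 1 each time a library was left out. Leaving out 1 library gave 2 to 3 members called in monolayer and 1 to 2 for the difference of changes. Grouping by the cell line entry called 0 members in all 3 comparisons of clones, where Igfbp6 was at -0.23 in cartilage, 0.76 in monolayer and -0.996 for the difference. It turned the sign of Igf2r (-0.047) and Igfbp4 (-0.042) in cartilage and of Igfbp4 (-0.041) in monolayer, and of Adam12 (0.21) and Pik3r1 (-0.45) in P3D8, and lost 17 calls of genes around the system. All other alternatives together lost 26 such calls. Library totals turned Htra1 in P3D8 (-0.12) and the Igf2r difference (0.056), and the count tests turned the uncalled Pappa difference (-0.85 by edgeR, -0.27 by DESeq2). Igfbp5 in monolayer, with 8 reads in all, ran from -0.59 to 0.29 as libraries were left out, at 0.13 without P3D8 monolayer replicate 2 and 0.29 without P3E3 monolayer replicate 1. The cause of these changes was not tested.

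Rescaling to library totals moved the median log2 change of all genes by -0.37 in P3D8 and -0.60 in P3E3 for cartilage against monolayer, and by 0.10 between the cartilages, -0.11 between the monolayers and 0.22 for the difference. Higher calls then made up 36.1% of the calls in P3D8 (main 49.3%), 35.2% in P3E3 (52.2%), 54.5% between the cartilages (43.8%), 42.3% between the monolayers (53.4%) and 57.4% for the difference (40.2%). With no filter, 6315 genes were called in P3D8 (main 4041), of 18148 tested. The replicate block changed no member's call, with Igfbp6 at -2.64 for the difference (limma adjusted p = 6.7e-07) and 4 members called in each cartilage comparison. Depth limits Igfbp5 in monolayer, and why genes with several transcript entries were less often well counted was not tested.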

Other observations

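Igfals, encoding the acid-labile subunit that holds IGFs in the circulation, had 5.97 to 8.24 normalized counts in P3D8/BMP9 and 3.43 to 4.13 in P3E3/BMP9, and no read in either monolayer. With a mean of 2.73 over the 12 libraries and 2 transcript entries it was not tested. Igfbp2 and Igfbp5 are neighbours on chromosome 1, 5590 bases apart, and Igfbp1 and Igfbp3 on chromosome 11, 3539 bases apart. Of these 4 genes, Igfbp5 alone was counted, and Igfbp1, with 1 entry, had no read in any library.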
